A study of Mus musculus with 11 samples.

Results

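Described here are the differences in gene expression between a hairpin against Ror2 (shROR2) and a control hairpin (shLUC) that the luminal and the basal epithelial layer of the mouse mammary gland had in common. All 11 of the 11 arrays were used, and membership followed the sample labels alone: the effect is the mean of the luminal and the basal difference between shROR2 and shLUC. The mammary duct has an inner luminal layer, which contains hormone-sensing and milk-producing cells, and an outer basal layer of contractile myoepithelial cells. Ror2 is a receptor tyrosine kinase-like protein that binds Wnt5a and signals through planar polarity components and small GTPases rather than through beta-catenin.

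Primary mouse mammary epithelial cells were transduced with lentivirus carrying either hairpin, placed in Matrigel for injection and grown into outgrowths, from which luminal and basal cells were sorted by CD24 and CD29. The stated purpose was to find functions of Ror2 in each compartment; the comparison here asks what the compartments had in common. Luminal cells gave 3 arrays with shLUC and 2 with shROR2, and basal cells 3 with each. The labels call the samples biological triplicates without saying which outgrowth or animal gave which, so p-values measure the spread between these arrays. They name the hairpins only as shLUC and shROR2, and they name no blood or endothelial marker in the sort. All 4 groups carry a lentiviral hairpin; no untransduced group is among the samples used here.

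Signals are log2 values relative to the 75th percentile of the same array, so that 0 marks that percentile and 1 unit is a doubling; a difference is shROR2 minus shLUC on that scale. Per array, 52.8% to 59.6% of probes lay well above background and 0 spots were saturated. Replicate arrays correlated at 0.941 to 0.953 in basal shROR2 and at 0.976 to 0.983 in the other groups; the median SD of features with a mean signal above 0 was 0.208 in basal shROR2, the widest of the 4 groups. The sorted layers carried their markers: the mean signal of 20 general luminal markers was 3.02 to 3.21 on luminal arrays and 0.65 to 0.78 on basal arrays, and that of 24 smooth muscle and myoepithelial markers was -0.41 to -0.02 and 5.00 to 5.18. The single Ror2 probe lay near background and gave no check of the knockdown. It was well above background on 1 of 11 arrays, basal shROR2 replicate 1, and its average difference was 0.05 (exact permutation of hairpins within compartments, 2-sided p = 0.925, 200 regroupings, smallest possible p 0.005).

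Genes that rose with shROR2 and were higher in both layers included 11 of 23 tested macrophage and leukocyte markers, 4 of 38 immediate early genes, 2 of 21 endothelial markers and 2 of 10 adipocyte markers (Fabp4 and Cd36), and genes such as Akap12, Xlr3b and Lalba. Fewer named genes, among them Gja1 and Fhl2, were lower in both layers. Over 29430 features (14069 named genes and 15361 unnamed probes), the average effect passed limma's test at a Benjamini-Hochberg adjusted p under 0.05 for 135 features, 0.459% of those tested; 83 were higher (0.282%) and 52 lower (0.177%). A shared call was defined as such a feature with the same sign in both layers and an unadjusted p under 0.05 in each, which 5.55% of features met in luminal and 15.8% in basal cells. There were 109 shared calls (0.37%), 70 higher (0.238%) and 39 lower (0.133%), of which 55 and 14 had gene names. In 70 of the 70 higher and 38 of the 39 lower features, the shROR2 arrays did not overlap the shLUC arrays in either layer, against 1.68% and 2.46% of all features; the choice of shared calls favours such separation. The median average difference was 0.93 among the higher and -0.69 among the lower shared calls, against -0.02 over all features. Of the 109, 11 were well above background on fewer than 2 arrays of at least 1 group.

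The number of calls rested on single arrays. Without luminal shLUC replicate 1 or luminal shROR2 replicate 2 there were 0 calls on the average, although 2832 and 2634 features had an unadjusted p under 0.05, against 3474 with all arrays; without luminal shLUC replicate 2 there was 1. Shared calls fell to 13 without basal shLUC replicate 1, 27 without basal shLUC replicate 2, 54 without basal shLUC replicate 3, 20 without luminal shLUC replicate 3 and 17 without luminal shROR2 replicate 1, and rose to 171 without basal shROR2 replicate 1. All 109 kept their sign in both layers without each array in turn, and 0 of them remained a shared call every time. For the features whose hairpins did not overlap in either layer, leaving out an array could not change the sign. With the 2 slides as a block, 60 features were called on the average and 50 were shared calls.

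Across all features the effects in the layers were only loosely related. Their Pearson correlation was 0.11 over 29430 features and 0.18 over the 20794 features well above background on every array, and 54.1% of features had the same sign; features of one array are not independent, and no p is given. At an unadjusted p under 0.05 in both layers, 399 features had the same sign (1.36%) and 113 the opposite sign (0.384%). In luminal cells alone 1 feature passed the adjusted test (0.0034%) and in basal cells alone 284 (0.965%), 113 of them higher and 171 lower. Of the 113 basal features that were higher, 96 also had a luminal difference above 0, and the median luminal difference of the 113 was 0.40; of the 171 that were lower, 112 had a luminal difference below 0, and the median of the 171 was -0.13. Among the shared calls the basal difference was the larger in 84 and the luminal difference in 25. The difference between the layers was called for 0 features (limma; 2440 at an unadjusted p under 0.05, 40 of them shared calls).

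**Figure D1:**
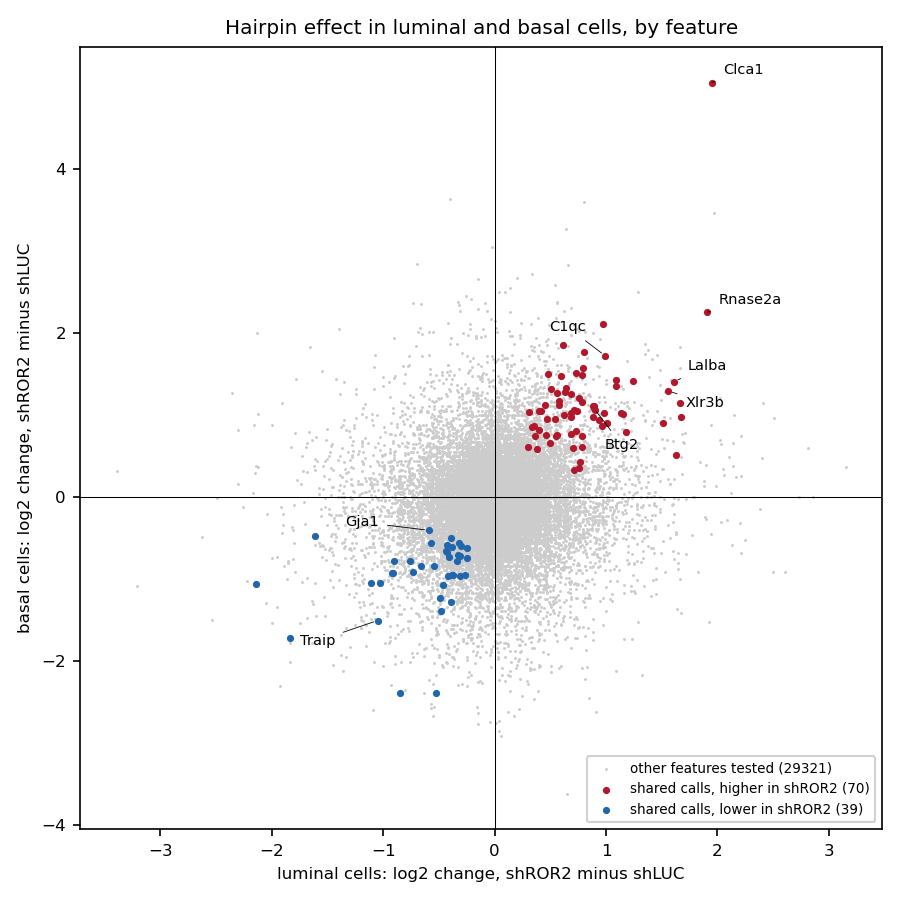
Difference between shROR2 and shLUC in luminal cells (x axis) and basal cells (y axis), both in log2 units, for 29430 features; red points are the 70 higher and blue points the 39 lower shared calls, grey points all other features. The grey cloud is nearly round (Pearson correlation 0.11), the shared calls lie in the upper right and lower left, and in 84 of 109 the basal difference is the larger.

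Macrophage and leukocyte markers were the list with the most shared calls. Of 30 listed genes 23 were tested, and 11 of these rose on the average, each of them a shared call, and 0 fell, against 0.282% and 0.177% of all features. The median average difference of the 23 was 0.90, with 0.65 in luminal and 1.08 in basal cells, against -0.02, 0.00 and -0.05 over all features. In 15 of the 23 the shROR2 arrays lay above the shLUC arrays in both layers without overlap, against 1.68% of all features. On the first slide alone the median was 0.86 and on the other 0.90, from 1 or 2 arrays a group. The list was written with earlier results of these data known, so its direction is no independent evidence.

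C1qc, a subunit of the complement component C1q that tissue macrophages make, stood apart most clearly. Its signal was 0.97, 1.07 and 1.00 with shLUC and 1.87 and 2.14 with shROR2 in luminal cells, and -0.18, -0.27 and 0.38 with shLUC and 1.50, 1.86 and 1.72 with shROR2 in basal cells. Each shROR2 array exceeded every shLUC array of its layer, and the average difference was 1.35 (SE 0.14, 2.56-fold, limma adjusted p = 0.012). Its partner C1qb rose by 0.72 (SE 0.12, adjusted p = 0.0449), and C1qa, at 1.00, missed the threshold (adjusted p = 0.0563). Cd74, the invariant chain that escorts MHC class II molecules, had signals of 4.72, 4.80 and 4.67 with shLUC and 5.40 and 5.19 with shROR2 in luminal cells, and 3.63, 3.81 and 3.83 with shLUC and 4.80, 5.15 and 5.14 with shROR2 in basal cells. Its groups did not overlap, and the average difference was 0.92 (SE 0.10, 1.89-fold, adjusted p = 0.0128). The class II chains H2-Ab1 and H2-Eb1 rose by 0.85 (SE 0.10, adjusted p = 0.016) and 0.96 (SE 0.12, adjusted p = 0.0165), and a further H2-Ab1 probe differed by 0.95; H2-Aa, at 0.59, did not pass (adjusted p = 0.0809). Near-identical class II and lysozyme genes may share probe signal.

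The other called members were the lysozyme Lyz1 (0.97, SE 0.10, adjusted p = 0.012), the signalling adaptors Tyrobp (1.12) and Fcer1g (0.89), the cathepsin Ctss (1.18), the lysosomal membrane protein Laptm5 (1.28) and the calcium-binding protein Aif1 (0.92). Their adjusted p-values ran from 0.012 to 0.0382. Genes on no list that are well known from macrophages also rose in both layers: Mpeg1, a pore-forming protein of phagocytes (1.03, SE 0.10, adjusted p = 0.0115; a further probe 1.49), and Plek, a protein kinase C substrate of blood cells (0.79, SE 0.09, adjusted p = 0.0153). Chosen after their values were seen, the lipid receptor Trem2 (1.13), the chemokine Ccl6 (0.96) and the proteoglycan core protein Srgn (0.65) also rose.

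Some defining leukocyte markers did not pass the test. Ptprc, which encodes the pan-leukocyte antigen CD45, differed by 0.06 (adjusted p = 0.923), and Itgam by 0.06 (adjusted p = 0.835). The tested Itgam probe read 8.52 to 8.83 on all 11 arrays, and its 2 further probes differed by 0.31 and 0.49. Mrc1, Cd163, the T cell gene Cd3d and the B cell gene Ms4a1 did not pass the brightness filter, and no probe carried the name Cd68. Csf1r, the receptor for the macrophage growth factor, gave opposing readings by probe. Its brightest probe, the one tested, read 4.99 to 5.25 on all 11 arrays (average difference -0.05), whereas another Csf1r probe read 1.26, 1.34 and 1.29 with shLUC and 1.84 and 2.15 with shROR2 in luminal cells, and 0.19, 0.26 and 0.01 with shLUC and 1.57, 1.30 and 1.41 with shROR2 in basal cells. That probe did not overlap between hairpins in either layer and rose by 0.99 (SE 0.10, limma adjusted p = 0.0126 over 33612 probes). The third Csf1r probe differed by -0.01.

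In the controls, macrophage transcripts were more abundant in the luminal sort. The mean signal of the 23 genes was 1.08 to 1.14 with shLUC and 1.66 to 1.69 with shROR2 in luminal cells, and -0.01 to 0.23 with shLUC and 0.99 to 1.25 with shROR2 in basal cells, so that the basal shROR2 arrays reached the level of the luminal controls. Summed as linear signal in multiples of the 75th percentile, the list ran from 537 to 566, 583 to 609, 442 to 516 and 576 to 583 in the same order, of which the tested Itgam probe alone made up 367 to 454. Without it the sum ran from 119 to 124 with shLUC and 167 to 168 with shROR2 in luminal cells, and from 72.3 to 78.9 and 122 to 138 in basal cells, a choice made after these values were seen. In bulk RNA of sorted cells, more cells of a type and more RNA per cell cannot be told apart. Interferon response genes had 0 of 25 called (limma; 3 higher and 2 lower at an unadjusted p under 0.05, against 4.62% and 7.19% of all features) and a median difference of 0.00.

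**Figure D2:**
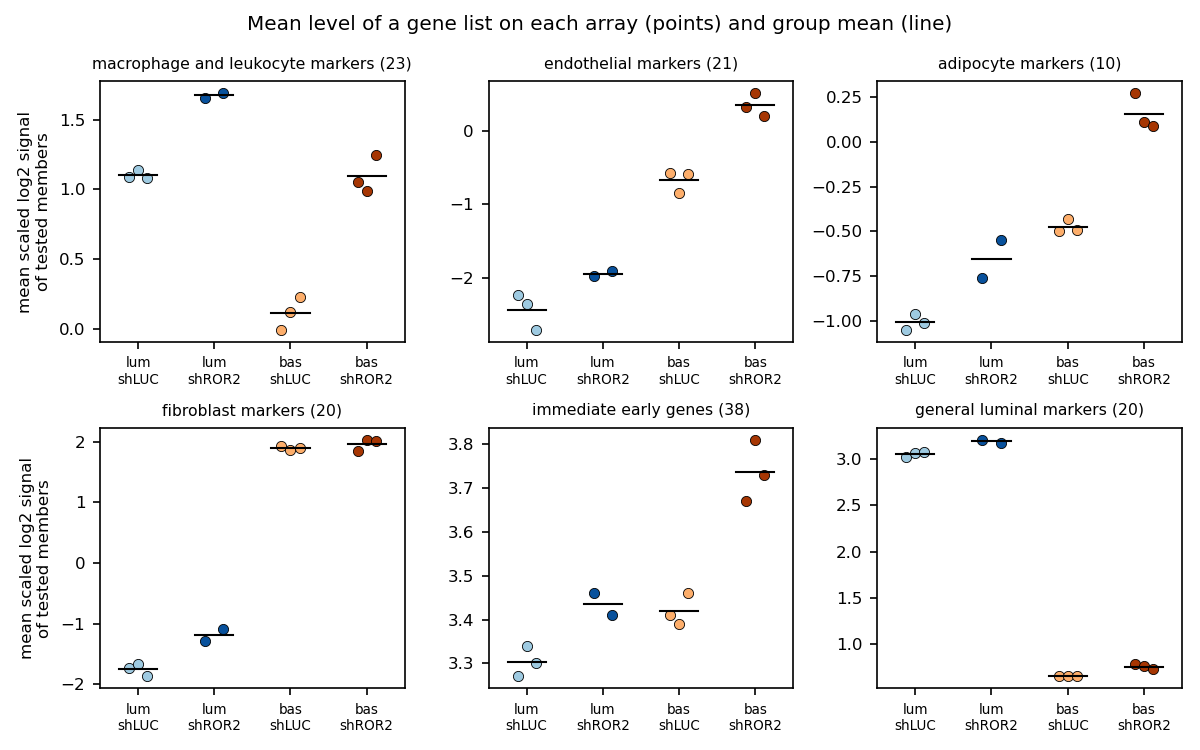
Mean scaled log2 signal (y axis) of the tested members of 6 gene lists on each array (points) with the group mean (line), by layer and hairpin (x axis; lum, luminal; bas, basal); the number of genes is in brackets. The macrophage, endothelial and adipocyte means are higher on every shROR2 array than on the shLUC arrays of the same layer, the fibroblast mean is higher in luminal shROR2 and overlaps in basal cells, and each panel has its own y axis.

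Endothelial markers showed a similar shift with fewer calls. Of 21 tested genes 3 rose (Plvap, Ramp2 and Mmrn1), 2 of them as shared calls, and 0 fell, against 0.282% and 0.177% of all features. Mmrn1 was no shared call: it passed the brightness filter only through the 3 basal shROR2 arrays and differed by -0.02 in luminal cells. The list's median average difference was 0.92 against -0.02 over all features. At an unadjusted p under 0.05, 14 were higher and 0 lower, against 4.62% and 7.19% of all features. Plvap, a protein of the diaphragms of fenestrated capillaries, had signals of 0.53, 0.97 and 0.53 with shLUC and 1.91 and 1.63 with shROR2 in luminal cells, and 3.30, 2.68 and 3.29 with shLUC and 4.10, 4.47 and 4.75 with shROR2 in basal cells. It did not overlap between hairpins and rose by 1.22 (SE 0.18, 2.33-fold, adjusted p = 0.0317). Ramp2, a subunit of the adrenomedullin receptor, rose by 0.98 (SE 0.12, adjusted p = 0.0165), although it was well above background on only 1 of 3 luminal shLUC arrays. Pecam1 (0.96, adjusted p = 0.156), Emcn (1.15, adjusted p = 0.0645) and Vwf (1.04, adjusted p = 0.0767) did not pass, and Kdr and Sox18 differed by 0.07 and -0.02; a further Kdr probe differed by 0.62 (0.73 in luminal and 0.51 in basal cells). Fli1, a transcription factor of blood and endothelial cells that is on no list, rose by 1.07 (SE 0.16, adjusted p = 0.0353); it was not well above background on any luminal shLUC array, which makes the luminal change at least 1.51-fold.

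Endothelial transcripts had the opposite control distribution to macrophage transcripts. Their mean signal was -2.71 to -2.24 with shLUC and -1.98 to -1.91 with shROR2 in luminal cells, and -0.85 to -0.58 with shLUC and 0.20 to 0.51 with shROR2 in basal cells, and their linear sum ran from 15.4 to 15.6, 20.0 to 21.4, 30.7 to 39.0 and 61.3 to 71.4. The basal sort thus held the higher level before any hairpin effect, and both layers were higher with shROR2. Of the 21 genes, 5 were well above background on no luminal shLUC array and 8 on no luminal shROR2 array. The luminal means therefore include values near background. The list's median difference was 0.71 and 1.22 on the 2 slides. Among all 55 named higher shared calls, 34 were more abundant in luminal and 21 in basal shLUC cells.

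Adipocyte markers followed the endothelial pattern at a lower count. Fabp4 and Cd36 were the 2 called of 10 tested, both higher and both shared calls, against 0.282% of all features called higher. The list's median difference was 0.37, against -0.02 over all features. At an unadjusted p under 0.05 (limma), 4 were higher and 0 lower, against 4.62% and 7.19% of all features. Fabp4, a fatty acid carrier of adipocytes that capillary endothelium also makes, had signals of 2.48, 2.71 and 2.39 with shLUC and 3.38 and 3.63 with shROR2 in luminal cells, and 4.64, 4.45 and 4.50 with shLUC and 5.43, 5.74 and 5.46 with shROR2 in basal cells. Every shROR2 array lay above the shLUC arrays of its layer, with an average difference of 1.00 (SE 0.10, 1.99-fold, adjusted p = 0.012). Cd36, a fatty acid receptor shared by adipocytes, endothelium and macrophages, rose by 0.99 (SE 0.15, adjusted p = 0.0355). Several defining adipocyte genes, Adipoq, Lep, Cfd, Pck1 and Car3, did not pass the brightness filter, and Plin1 and Cidec differed by 0.34 and -0.08. The linear sum of the list was 11.4 to 13.3 with shLUC and 18.4 to 20.7 with shROR2 in luminal cells, and 29.4 to 31.9 and 56.1 to 69.0 in basal cells. Fabp4 alone made up most of the basal sum, so that sum says little about the other members.

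Fibroblast and pericyte markers had no calls. Of 20 fibroblast genes 0 were called (limma), and their median was 0.62 in luminal and 0.21 in basal cells. At an unadjusted p under 0.05, 10 were higher and 2 lower, against 4.62% and 7.19% of all features. Both differences were above 0 in 13 and below 0 in 2, against 24.2% and 29.8% of all features. Of 9 pericyte genes 0 were called (2 higher, 0 lower at an unadjusted p under 0.05), with Rgs5 at 0.84 (adjusted p = 0.0645). Red cell and skeletal muscle transcripts had 0 of 9 called (2 higher, 0 lower at an unadjusted p under 0.05). Together, members of these 6 lists of other cell types made up 15 of the 55 named higher and 0 of the 14 named lower shared calls. Left out, they leave 119 calls on the average and 94 shared calls, 55 higher and 39 lower. The part of other cells in any of these results was not tested.

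**Figure D3:**
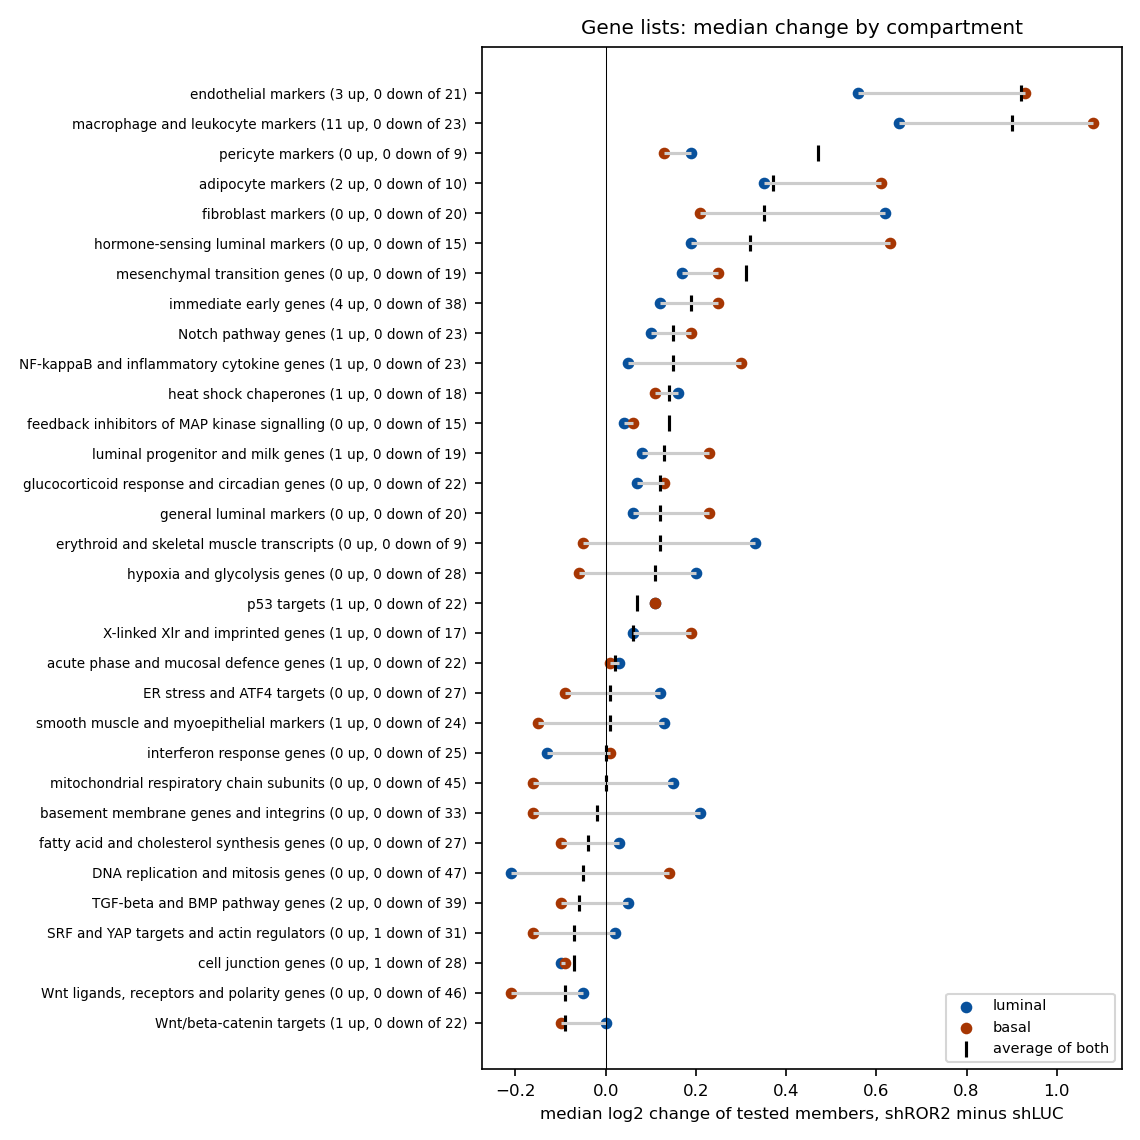
Median difference between shROR2 and shLUC (x axis, log2 units) of the tested members of 32 gene lists (y axis, with members called higher and lower on the average, of those tested) in luminal cells (blue), basal cells (brown) and on the average (black bar). Endothelial and macrophage lists lie farthest to the right, at 0.92 and 0.90 on the average, and most other lists lie within 0.35 of 0.

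Among the genes that cells switch on within minutes of stimulation, 4 of 38 tested immediate early genes rose, all as shared calls, and 0 fell, against 0.282% and 0.177% of all features. They were Btg2, Atf3, Fosb and Egr1. The list's median difference was 0.19, with 0.12 in luminal and 0.25 in basal cells; the median was 0.19 and 0.25 on the 2 slides. Both differences were above 0 in 23 genes and below 0 in 1, against 24.2% and 29.8% of all features. At an unadjusted p under 0.05, 16 were higher and 1 lower, against 4.62% and 7.19% of all features. The mean signal of the list was 3.27 to 3.34 with shLUC and 3.41 to 3.46 with shROR2 in luminal cells, and 3.39 to 3.46 with shLUC and 3.67 to 3.81 with shROR2 in basal cells.

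The promoters of 3 of these genes are printed because immediate early genes are controlled there and these genes moved together; Egr1 is not printed. Each is the 250 bases before the RefSeq start site, 5′ to 3′ on the gene's strand, build GRCm38.p6, with capitals marking a motif match on either strand: Btg2 from chr1:134079156-134079405, minus strand, Atf3 from chr1:191183334-191183583, minus strand, and Fosb from chr7:19310046-19310295, minus strand.
Btg2: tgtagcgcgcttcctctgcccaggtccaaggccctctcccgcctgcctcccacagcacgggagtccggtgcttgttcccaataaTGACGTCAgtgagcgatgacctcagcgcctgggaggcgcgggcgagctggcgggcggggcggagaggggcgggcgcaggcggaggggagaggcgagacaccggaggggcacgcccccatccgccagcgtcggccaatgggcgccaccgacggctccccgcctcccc
Atf3: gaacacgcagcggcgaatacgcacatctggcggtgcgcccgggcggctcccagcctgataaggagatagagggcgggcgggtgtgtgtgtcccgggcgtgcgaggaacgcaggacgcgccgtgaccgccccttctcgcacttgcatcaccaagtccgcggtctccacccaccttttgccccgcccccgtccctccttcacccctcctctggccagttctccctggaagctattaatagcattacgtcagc
Fosb: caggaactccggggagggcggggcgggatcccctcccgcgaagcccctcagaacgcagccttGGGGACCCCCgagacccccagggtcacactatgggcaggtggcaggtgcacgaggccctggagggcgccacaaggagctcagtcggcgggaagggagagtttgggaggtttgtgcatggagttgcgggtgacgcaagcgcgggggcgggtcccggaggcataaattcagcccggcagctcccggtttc
The Btg2 match is the cyclic AMP response element TGACGTCA, 166 to 159 bases before the start, and the Fosb match is an NF-kappaB site 188 to 179 bases before it; Atf3 had no match to the 6 motifs searched.

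Btg2, an antiproliferative gene that p53 and growth factors both induce, showed the most even effect of the 4. Its signal was 2.03, 2.21 and 2.15 with shLUC and 3.19 and 2.85 with shROR2 in luminal cells, and 1.11, 0.98 and 0.99 with shLUC and 2.19, 2.06 and 2.09 with shROR2 in basal cells. No shROR2 array overlapped the controls, and the difference was 0.89 in luminal and 1.08 in basal cells, 0.98 on the average (SE 0.09, 1.98-fold, adjusted p = 0.0113). Atf3, a stress-induced transcription factor, had signals of 4.04, 4.09 and 4.02 with shLUC and 4.39 and 4.34 with shROR2 in luminal cells, and 3.24, 3.07 and 3.17 with shLUC and 4.17, 4.11 and 4.27 with shROR2 in basal cells. The groups were apart in both layers, with 0.31 in luminal and 1.03 in basal cells and 0.67 on the average (SE 0.07, 1.59-fold, adjusted p = 0.0132). The difference between the layers had an unadjusted p of 0.000957 but an adjusted p of 0.267.

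Fosb, a partner of Jun in the AP-1 factor, had signals of 7.92, 7.96 and 7.94 with shLUC and 8.34 and 8.25 with shROR2 in luminal cells, and 7.42, 7.32 and 7.35 with shLUC and 8.19, 8.28 and 8.19 with shROR2 in basal cells. It rose by 0.61 (SE 0.07, 1.52-fold, adjusted p = 0.0154), again without overlap. Egr1, a zinc finger factor, rose by 0.59 (SE 0.09, adjusted p = 0.0372). Fos (0.44, adjusted p = 0.0579), Nr4a1 (0.48, adjusted p = 0.07) and Zfp36 (0.40, adjusted p = 0.0982) had differences in the same direction that did not pass, and Jun differed by 0.21, Ccn1 by -0.01 and Egr2 by 0.00. Feedback inhibitors of MAP kinase signalling, which the same stimuli induce, had 0 of 15 called (limma). At an unadjusted p under 0.05, 3 were higher and 1 lower, against 4.62% and 7.19% of all features. Of 22 p53 targets 1 was called, Btg2 itself (limma, 5 higher and 0 lower at an unadjusted p under 0.05), and Cdkn1a differed by 0.34 (adjusted p = 0.155). Of 18 heat shock chaperones 1 rose on the average, Hspa1a (0.88, limma adjusted p = 0.0165), and it was no shared call, with 0.15 in luminal and 1.61 in basal cells. Its near-identical neighbour Hspa1b may share the probe's signal. Of the 18, 3 were higher and 0 lower at an unadjusted p under 0.05. Both differences were above 0 in 13 and below 0 in 0, against 24.2% and 29.8% of all features.

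Over the shared calls as a whole, a promoter was at hand for 39 of the 55 higher and 13 of the 14 lower named genes, and for 11151 of the 14069 named genes tested. The AP-1 site TGANTCA lay in 7 of the 39 (17.9%) and 3 of the 13 (23.1%), against 5.1% of all 11151. The genes were Bcl2a1d, Ctla2a, Fam25c, Hcls1, Il6, Procr and Trem2 among the higher and Gja1, Tpbg and Usp31 among the lower. Of the 30 immediate early genes with a promoter 1 held it. The heat shock element GAANNTTC lay in 7.69% of the higher and 5.08% of all promoters, the NF-kappaB site in 7.69% and 8.62%, the CArG box in 2.56% and 1.34%, the E-box CACGTG in 0 of 39 and 7.94%, and TGACGTCA in 2.56% and 2.57%. Both strands were searched; these are matches of letters, with no test.

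Outside these groups, 43 of the 69 named shared calls were on no list, 31 higher and 12 lower. Akap12, a scaffold for protein kinase A and C, had signals of 1.62, 1.53 and 1.42 with shLUC and 2.63 and 2.68 with shROR2 in luminal cells, and 4.57, 4.14 and 4.28 with shLUC and 5.31, 5.26 and 5.47 with shROR2 in basal cells. The groups did not overlap and the effect was nearly equal in the layers, 1.13 in luminal and 1.02 in basal cells, 1.07 on the average (SE 0.10, 2.10-fold, adjusted p = 0.0113); a further probe gave 1.03. Xlr3b, a lymphocyte-regulated gene of the X chromosome that belongs to a family of close copies, had signals of -1.24, -1.60 and -1.25 with shLUC and 0.34 and 0.05 with shROR2 in luminal cells, and -0.13, -0.23 and -0.50 with shLUC and 1.21, 1.1 and 0.71 with shROR2 in basal cells. It rose by 1.43 (SE 0.14, 2.69-fold, adjusted p = 0.0113), with 1 further probe at 3.01, and its copies may share the signal. Of the 17 genes on the Xlr and imprinted list it was the only one called.

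Lalba, the milk protein alpha-lactalbumin, was the 1 called of 19 luminal progenitor and milk genes. It read 3.00, 3.05 and 2.92 with shLUC and 4.48 and 4.70 with shROR2 in luminal cells, and -0.75, -0.91 and -0.47 with shLUC and 0.40, 0.34 and 1.33 with shROR2 in basal cells. It rose by 1.61 in luminal and 1.40 in basal cells, 1.50 on the average (SE 0.19, 2.83-fold, adjusted p = 0.0183). The caseins did not follow: the closest by p, Csn2, was at -0.89 (adjusted p = 0.244). Mustn1, a small nuclear protein of muscle and cartilage, read -1.53, -1.98 and -1.86 with shLUC and -0.43 and -0.68 with shROR2 in luminal cells, and 0.89, 0.91 and 1.29 with shLUC and 2.02, 2.79 and 2.53 with shROR2 in basal cells. It rose by 1.33 (SE 0.17, 2.51-fold, adjusted p = 0.0177) with no overlap.

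The steepest differences among the named shared calls, in Clca1 and Rnase2a, came with uneven basal replicates. Clca1, a secreted regulator of chloride channels, read 3.38, 3.45 and 3.37 with shLUC and 5.38 and 5.32 with shROR2 in luminal cells, and -2.49, -0.18 and -4.02 with shLUC and 3.03, 2.71 and 2.71 with shROR2 in basal cells. It was apart in both layers, at 1.95 in luminal and 5.05 in basal cells, but the basal controls spread over several units and only 2 of those 3 arrays were well above background; the average was 3.50 (SE 0.57, adjusted p = 0.0449). Rnase2a, a ribonuclease of eosinophils and macrophages with close copies, read -0.42, -0.13 and -0.65 with shLUC and 1.60 and 1.42 with shROR2 in luminal cells, and -2.72, -1.19 and -1.75 with shLUC and 1.25, -0.01 and -0.15 with shROR2 in basal cells. It rose by 2.08 (SE 0.33, 4.23-fold, adjusted p = 0.0441). Egfl6, a secreted matrix protein, rose by 1.20 (SE 0.14, adjusted p = 0.0165), but was not well above background on any luminal array, so that only its basal difference of 0.90 is measured on both sides.

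**Figure D4:**
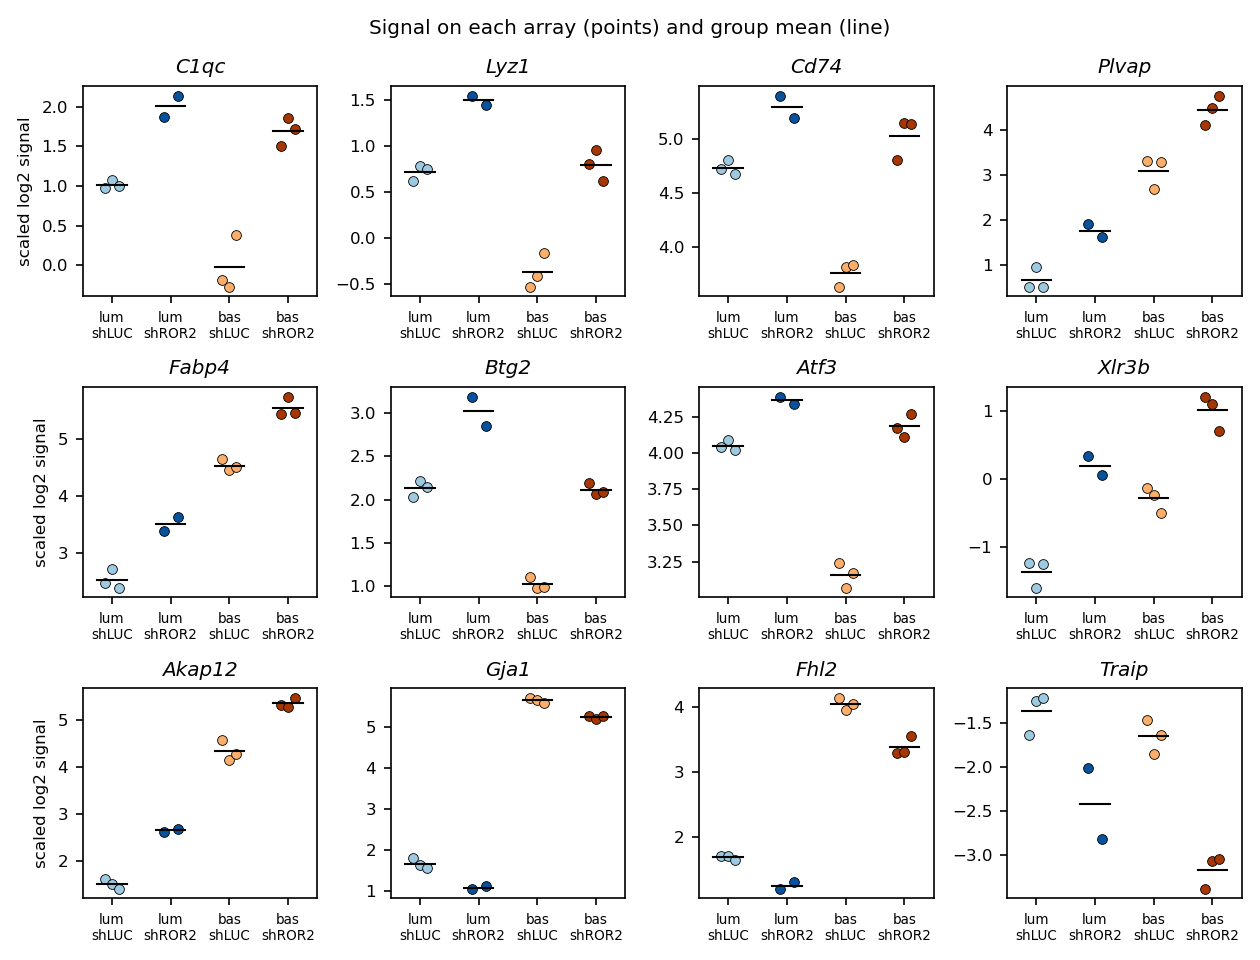
Scaled log2 signal (y axis) of 12 genes on each array (points) with the group mean (line), by layer and hairpin (x axis; lum, luminal; bas, basal). In the 9 genes from C1qc to Akap12 every shROR2 point lies above the shLUC points of its layer, in Gja1, Fhl2 and Traip below them; each panel has its own y axis.

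Few genes of the signalling lists were called. Procr, the protein C receptor, read 0.25, 0.13 and 0.07 with shLUC and 1.08 and 1.12 with shROR2 in luminal cells, and 2.44, 2.25 and 2.68 with shLUC and 2.89, 3.45 and 3.60 with shROR2 in basal cells. It was the 1 called of 22 Wnt/beta-catenin targets (0.91, SE 0.14, adjusted p = 0.0434), and it also marks endothelial cells; Axin2, the classical target, was not well above background on any luminal array and on only 1 of 3 basal shLUC arrays, and the list's median was -0.09. Of 46 Wnt ligands, receptors and polarity genes 0 were called (limma). At an unadjusted p under 0.05, 2 were higher and 6 lower, against 4.62% and 7.19% of all features. Wnt5a, the ligand of Ror2, differed by -0.27 (adjusted p = 0.297), Wnt4 by -0.10, the receptors Ror1 by 0.38 and Ryk by -0.78, and the polarity genes Vangl2 by -0.17 and Prickle1 by -0.33. Downstream, Rac1 was at -0.32 (adjusted p = 0.207), Rock1 at -0.34 (adjusted p = 0.16) and Rock2 at -0.10. The median of the list was -0.09, with -0.05 in luminal and -0.21 in basal cells.

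Il6, the 1 called of 23 NF-kappaB and cytokine genes, rose by 0.98 (SE 0.14, 1.98-fold, adjusted p = 0.0311). It read -0.36, -0.43 and -0.68 with shLUC and 0.52 and 0.85 with shROR2 in luminal cells, and 2.40, 2.01 and 2.46 with shLUC and 2.79, 3.28 and 3.15 with shROR2 in basal cells, without overlap. Tgfb3, a TGF-beta ligand, was the 1 shared call of 39 TGF-beta and BMP genes (0.52, SE 0.09, adjusted p = 0.0467); Fstl1, a secreted glycoprotein, was the other called gene of that list. Nrarp, a feedback inhibitor of Notch, was the 1 called of 23 Notch genes (1.20, SE 0.19, limma adjusted p = 0.0408), at 0.48 in luminal and 1.92 in basal cells, and was no shared call. At an unadjusted p under 0.05, 6 Notch genes were higher and 2 lower, against 4.62% and 7.19% of all features. The NF-kappaB and cytokine list had 5 higher and 4 lower, and the TGF-beta and BMP list 6 and 4.

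The lower shared calls were smaller and had no list in common. Gja1, the gap junction protein connexin 43 of myoepithelial cells, read 1.80, 1.65 and 1.57 with shLUC and 1.06 and 1.12 with shROR2 in luminal cells, and 5.73, 5.67 and 5.60 with shLUC and 5.28, 5.21 and 5.28 with shROR2 in basal cells. It lay lower on every shROR2 array of each layer and fell by 0.50 (SE 0.08, adjusted p = 0.0379), the 1 called of 28 cell junction genes; Pkp1 (-0.51, adjusted p = 0.0675) and Cdh1 (-0.32, adjusted p = 0.206) did not pass. Fhl2, a LIM domain cofactor of SRF-dependent transcription, read 1.71, 1.71 and 1.64 with shLUC and 1.20 and 1.30 with shROR2 in luminal cells, and 4.15, 3.96 and 4.05 with shLUC and 3.30, 3.31 and 3.56 with shROR2 in basal cells. It fell by 0.55 (SE 0.08, limma adjusted p = 0.0379) without overlap, the 1 called of 31 SRF and YAP targets and actin regulators, a list whose median was -0.07. At an unadjusted p under 0.05, 0 of the 31 were higher and 5 lower, against 4.62% and 7.19% of all features. Of the 28 cell junction genes, 1 was higher and 5 lower.

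Traip, a ubiquitin ligase of DNA repair, had the steepest fall among the named shared calls. It read -1.63, -1.25 and -1.21 with shLUC and -2.01 and -2.82 with shROR2 in luminal cells, and -1.46, -1.85 and -1.63 with shLUC and -3.38, -3.07 and -3.04 with shROR2 in basal cells. The average difference was -1.28 (SE 0.17, adjusted p = 0.0228), with 2 of 3 basal shROR2 arrays well above background. DNA replication and mitosis genes had 0 of 47 called (limma), with a median of -0.21 in luminal and 0.14 in basal cells. At an unadjusted p under 0.05, 3 were higher and 5 lower, against 4.62% and 7.19% of all features. Acsl4, which activates arachidonic acid, read 2.80, 2.71 and 2.87 with shLUC and 2.44 and 2.59 with shROR2 in luminal cells, and 4.61, 4.71 and 4.56 with shLUC and 3.74, 3.54 and 3.71 with shROR2 in basal cells. It fell by 0.62 (SE 0.08, adjusted p = 0.0228), more in basal (-0.96) than in luminal cells (-0.27), a difference between layers with an adjusted p of 0.345. Cast, the inhibitor of calpain proteases, fell by 0.56 (SE 0.09, adjusted p = 0.0441), by 0.57 in luminal and 0.56 in basal cells.

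Arhgap12 was at -0.69 (adjusted p = 0.0311), the trophoblast glycoprotein Tpbg, an inhibitor of Wnt/beta-catenin signalling, at -0.45 (adjusted p = 0.0389), and Lypd3 at -0.44 (adjusted p = 0.0441). The RNA-binding protein Syncrip was at -0.52 (adjusted p = 0.0366) and Pramel37 at -0.51 (adjusted p = 0.0365). Probes disagreed for several lower genes. Fbxl20 fell by 0.64 and Wdr92 by 0.51 at their brightest probe, while their further probes differed by 0.01 and 0.05; those of Usp31 (-0.76) ran from -0.53 to 0.14 and that of Syncrip was -0.26. Over all 16 called genes with several probes, 12 of 18 further probes had the same sign. At the threshold, Sparcl1 (0.89, adjusted p = 0.0474) and Usp31 (adjusted p = 0.0497) lay just inside, and Thbd (0.83, adjusted p = 0.051) and Cbln4 (-1.09, adjusted p = 0.052) just outside.

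Krt5, Krt14 and Krt8 differed by -0.13, -0.09 and -0.06 (adjusted p = 0.701, 0.785 and 0.856), and Krt18 by 0.31 (adjusted p = 0.228). General luminal markers had 0 of 20 called (limma). At an unadjusted p under 0.05, 5 were higher and 0 lower, against 4.62% and 7.19% of all features. Their mean signal was 3.02 to 3.08 with shLUC and 3.18 to 3.21 with shROR2 in luminal cells, and 0.65 to 0.66 and 0.73 to 0.78 in basal cells, without overlap. The mean of the hormone-sensing luminal markers did not overlap either, at 1.70 to 1.76 and 2.01 to 2.04 in luminal and -1.54 to -1.25 and -1.01 to -0.80 in basal cells. Smooth muscle and myoepithelial markers had 1 of 24 called, Myl9, which differed by 1.28 in luminal and -0.11 in basal cells. Of the 24, 8 were higher and 1 lower at an unadjusted p under 0.05 (limma). Both differences were above 0 in 5 and below 0 in 7 of the 24, against 24.2% and 29.8% of all features. Basement membrane genes and integrins had 0 of 33 called (5 higher, 2 lower at an unadjusted p under 0.05), and respiratory chain subunits 0 of 45 (0 higher, 1 lower). Among stress and metabolic lists, ER stress and ATF4 targets had 0 of 27 called (3 higher, 1 lower at an unadjusted p under 0.05), hypoxia and glycolysis genes 0 of 28 (2 higher, 1 lower) and fatty acid and cholesterol synthesis genes 0 of 27 (5 higher, 5 lower). Mesenchymal transition genes had 0 of 19 called (5 higher, 1 lower), and acute phase and mucosal defence genes 1 of 22 (6 higher, 1 lower), Serpina3f, which was no shared call. Acta2, the contractile actin of the basal layer, differed by 0.88 in luminal and -0.14 in basal cells (average adjusted p = 0.162).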

How the data were processed

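Luminal and basal cells sorted from mouse mammary outgrowths gave 11 one-colour Agilent arrays. Per the file headers, the intensity values of the scanner files were background-subtracted within each array by Feature Extraction 11.0.1.1. The authors' deposited table holds linear intensity values with nearly equal medians, made by a normalization not given in the sources used here. It served as an alternative. Processed signals were averaged over spots of a probe, taken as log2 and reduced by the array's 75th percentile. Probes well above background on at least 3 of 11 arrays passed (33630, of which 18 with a missing value were left out), and the brightest probe stood for a gene. Of 55681 probes, 26582 had a symbol, through RefSeq accessions (GRCm38.p6, names and promoters only).

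A model of 4 group means was fitted with limma 3.58.1 (lmFit, eBayes; R 4.3.3), with p-values 2-sided and Benjamini-Hochberg adjusted over all features; figures used matplotlib 3.10.9. It was run on simulated data with the same spread in all 4 groups, which cannot show what the wider spread of basal shROR2 does to the calls. The number of arrays limits precision. Ror2 failed the filter and was compared by exact permutation. Alternatives changed the background correction (normexp, offset 50, on median signals, since mean signals were not in the files used), scaling, filter, probe choice, variance model and blocks, and left out each array. Deviations from the group mean correlated at -0.037 to 0.04 over 15 pairs of same-numbered arrays from different groups (median 0.021). Over 30 pairs with different numbers they correlated at -0.068 to 0.052 (median -0.009). With 2 or 3 arrays a group, these values cannot show whether replicate numbers pair the arrays.

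The comparison, the gene lists and the rule for named genes were chosen with earlier results of these data known. The rule took, among genes bright in all groups, up to 12 non-overlapping shared calls per direction and 3 per list, each by smallest p. It took the 6 steepest per direction among bright called genes with the same sign in both layers, and genes whose layers differed (0 found). Beside them came up to 4 dim called genes per direction and 11 preset genes. Other list members were named after their values were seen. Motifs and sequences follow RefSeq promoters.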

Additional observations from a re-analysis of the deposited data

How the results depend on the processing

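The 135 features called on the average and the 109 shared calls became 58 and 58 with an additive model, 58 and 43 with no filter on dim probes, and 60 and 50 with the slide as a block. They rose to 289 and 209 with the authors' value table, 297 and 221 with eBayes with trend and robust, 297 and 208 with normexp background, and 238 and 177 with probes well above background on all 11 arrays. Leaving out single arrays gave 0 to 301 calls on the average and 0 to 171 shared calls. With the replicate block, 0 features were called on the average and 0 were shared calls (limma, 3490 at an unadjusted p under 0.05). The labels do not say whether replicate numbers pair the arrays. Scaling to detected probes or to the median, quantile normalization, array weights, the mean of a gene's probes and each probe as its own feature (chosen after seeing the data) kept both counts within 1.5 times; median scaling raised the share of higher calls from 61.5% to 69.7% on the average and from 64.2% to 73.9% among shared calls. Probes well above background on all 11 arrays gave 52.5% higher on the average, and leaving out basal shROR2 replicate 1, 2 or 3 gave 47.2%, 52% and 45.7%.

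All 48 called genes chosen by the rule kept their sign under each alternative run and on each slide alone (chosen after seeing the data), except that 37 of them were tested with probes well above background on all 11 arrays. Where a gene's hairpins did not overlap in either layer, leaving out an array or taking a single slide could not change its sign. Of the 48, 24 lost the call with an additive model, 19 with the slide as a block, 10 with median scaling and 48 with the replicate block or without luminal shLUC replicate 1, luminal shLUC replicate 2 or luminal shROR2 replicate 2. Ror2 differed by -0.03 to 0.14 under other scalings and by -0.28 to 0.38 without single arrays; its signal near background limits that value. The group of 2 arrays, luminal shROR2, and the spread of basal shROR2 limit the calls.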

Other observations

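Several genes were called on the average although mainly 1 layer moved. Mmrn1, an endothelial matrix glycoprotein, differed by 3.05 in basal and -0.02 in luminal cells; it was well above background only on the 3 basal shROR2 arrays, which makes the basal rise at least 2.61-fold. Optc and Nkain3 were well above background only on the 3 basal shLUC arrays and fell at least 1.78-fold and 2.13-fold there. Serpina3f, a protease inhibitor, was 1.68 higher in luminal and 0.28 higher in basal cells, and Fstl1, a secreted glycoprotein abundant in basal cells, differed by 1.39 in luminal and -0.10 in basal cells. The difference between layers did not pass in any of these 5 genes, with limma adjusted p-values from 0.0594 to 0.121.

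Hormone-sensing luminal markers had 0 of 15 called (limma), with a median average difference of 0.32. At an unadjusted p under 0.05, 7 were higher and 0 lower, against 4.62% and 7.19% of all features. Both differences were above 0 in 9 and below 0 in 1, against 24.2% and 29.8% of all features. The transcriptional coactivator Cited1 (0.72, adjusted p = 0.0728) and the prolactin receptor Prlr (0.75, adjusted p = 0.158) were among them, and Esr1 was at -0.38 (adjusted p = 0.519). Glucocorticoid response and circadian genes had 0 of 22 called (limma; 3 higher, 2 lower at an unadjusted p under 0.05), with Rora at 0.49 (adjusted p = 0.0793) and Cry1 at -0.52 (adjusted p = 0.11).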
